A study of Mus musculus with 4 samples.

Results

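The genes described here make, activate, store, break down and move fatty acids and phospholipids. They were taken by gene symbol from the authors' deposited table of transcripts called different between 2 genotypes of mouse testis, and cover the acyl-CoA synthetases and thioesterases, elongases, desaturases and ceramide synthases, acyltransferases, lipins and diacylglycerol kinases, phospholipases, the alpha/beta hydrolases named Abhd, fatty acid binding proteins and ABCA transporters, carnitine palmitoyltransferases and acyl-CoA dehydrogenases, and the peroxisomal Pex genes. The symbols took 96 of the 7453 listed genes, with 157 of the 11304 listed transcripts. Of these genes, 3 (Gpatch1, Gpatch2 and Gpatch4) were taken by the letters of their symbols alone, and they encode G-patch RNA-associated proteins and not lipid enzymes. They are counted in every total and described apart.

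RNA came from the left testis of C57BL/6 mice at postnatal day 56, from 2 samples labelled Ppp2ca-cKO with the genotype Ppp2ca-/- (cKO) and 2 labelled wild type (WT), sequenced from TruSeq libraries. Ppp2ca is the gene of a catalytic subunit of PP2A, a serine/threonine phosphatase, and the series asks how it bears on the start of meiosis in male germ cells. The labels name neither the Cre line nor the cells it acts in, nor how animals were assigned to samples, and p-values therefore cover the spread between these samples alone. Ppp2ca has 0 of the 11304 listed transcripts, so its level could not be used to check the labels and is not analysed here.

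A fatty acid enters metabolism once an acyl-CoA synthetase has joined it to coenzyme A. The acyl chain can then be elongated, desaturated, oxidised in mitochondria or peroxisomes, or built into triglycerides and phospholipids, from which lipases and phospholipases free it again. In the testis, germ cell membranes gather long polyunsaturated acyl chains as spermatids form, and Sertoli cells, the supporting cells of the seminiferous tubule, take up lipid from the cytoplasm that spermatids shed and oxidise part of it.

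Every gene is described by its lead transcript, the listed one whose mean normalized count is highest. A normalized count is the estimated read count divided by the authors' size factor of the library, which was 1.24 and 1.25 in the cKO and 0.818 and 0.854 in the WT. FPKM is a level per length of transcript and reads of the library, used here to compare genes with each other. Log2 fold changes are cKO over WT with their standard error (SE), and a transcript passed where its adjusted p in edgeR's quasi-likelihood test, over the 64840 transcripts the authors had tested, was under 0.05. All 96 genes are in the table because the authors had called them in the same contrast, so passing is no independent sign that a gene differs.

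Library totals recovered from the files were 18684809 and 19835797 reads in the cKO and 17612532 and 19783727 in the WT, of which the listed transcripts took 24.4% and 25.5% in the cKO and 43.3% and 44.5% in the WT. Marker lists of testis cell types moved with the genotype. As a background to their counts, 39.8% of tested lead transcripts of all listed genes fell and 11.2% rose. By the authors' direction, 63.6% of all listed genes were lower and 36.4% higher. All 11 of the round spermatid markers and all 11 of the elongating spermatid markers were listed and tested, and 10 of each fell in the cKO, with median log2 fold changes of -3.14 and -4.36. The summed normalized count of the elongating spermatid list was 4365 and 17407 in the cKO and 223378 and 244934 in the WT, and that of the round spermatid list 2351 and 3771 in the cKO and 23359 and 29592 in the WT. Of the spermatocyte list 8 of 10 genes were listed, and 4 fell. Of the Sertoli list 11 of 15 genes were listed, and 5 rose, with summed counts of 37218 and 39922 in the cKO and 14543 and 16067 in the WT. Of the Leydig list, markers of the steroid-making cells between the tubules, 9 of 12 were listed and 6 rose, while Hsd17b3 of that list, below the filter on low counts, had 0 reads in both cKO libraries against normalized counts of 163 and 3.51 in the WT. Of the leukocyte list 7 of 12 were listed and 4 rose. A single gene was listed of the 7 myoid markers, Actg2, which fell (log2 fold change -4.29), and of the 7 endothelial markers, Pecam1, which rose (5.32). All 6 listed spermatogonial markers of 8 were higher in the authors' table and 0 passed here. Adipoq and Lipe of the 9 adipocyte markers fell, Lpl was higher in both cKO libraries without passing (log2 fold change 1.5 ± 0.45, adjusted p = 0.120), and Plin1, Pparg, Lep, Cfd, Retn and Cidec of that list have no listed transcript and are not analysed here. In whole-testis RNA, fewer cells of a type and less RNA per cell cannot be told apart, and the part of these shifts in the values below was not tested.

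Promoters are shown for the genes whose start sites bear on the values below: Acsl1, with a listed transcript at each of its promoters, Acsbg1 and Acsbg3, relatives that moved in opposite directions, Lpcat2b, a gene with a single listed transcript that fell, Elovl6, whose transcripts start close together and were listed in opposite directions, and Abca1, which rose. Each run is the 250 bases before the RefSeq start in GRCm38.p6, read 5′ to 3′ on the strand of the gene, and capitals mark CCAAT (or ATTGG on the other strand), the GC box GGGCGG (or CCGCCC) and TGACG, a core of the cAMP response element, (or CGTCA).
Acsl1, promoter of the lead transcript (chr8:46490716-46490965, + strand): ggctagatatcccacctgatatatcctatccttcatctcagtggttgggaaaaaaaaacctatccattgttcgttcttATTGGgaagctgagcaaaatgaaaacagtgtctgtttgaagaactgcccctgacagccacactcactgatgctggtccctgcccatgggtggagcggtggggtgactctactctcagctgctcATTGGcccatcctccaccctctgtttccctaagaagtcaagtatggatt
Acsl1, promoter of the other transcript (chr8:46470787-46471036, + strand): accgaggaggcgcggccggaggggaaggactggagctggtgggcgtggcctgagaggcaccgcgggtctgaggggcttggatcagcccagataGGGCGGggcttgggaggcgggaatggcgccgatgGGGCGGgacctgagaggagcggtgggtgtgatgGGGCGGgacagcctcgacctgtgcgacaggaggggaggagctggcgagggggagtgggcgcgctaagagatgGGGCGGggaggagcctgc
Acsbg1 (chr9:54661886-54662135, - strand): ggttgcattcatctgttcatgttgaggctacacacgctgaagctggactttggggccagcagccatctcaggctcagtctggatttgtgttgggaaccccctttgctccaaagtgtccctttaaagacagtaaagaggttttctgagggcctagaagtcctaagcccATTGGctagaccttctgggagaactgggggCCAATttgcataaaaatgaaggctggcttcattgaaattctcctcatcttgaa
Acsbg3 (chr17:56875234-56875483, + strand): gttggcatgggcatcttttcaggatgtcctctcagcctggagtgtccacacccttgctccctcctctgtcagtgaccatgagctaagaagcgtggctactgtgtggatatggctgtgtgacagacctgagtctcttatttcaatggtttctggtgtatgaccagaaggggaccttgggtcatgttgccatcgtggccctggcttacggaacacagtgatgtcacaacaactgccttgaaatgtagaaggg
Lpcat2b (chr5:107431299-107431548, + strand): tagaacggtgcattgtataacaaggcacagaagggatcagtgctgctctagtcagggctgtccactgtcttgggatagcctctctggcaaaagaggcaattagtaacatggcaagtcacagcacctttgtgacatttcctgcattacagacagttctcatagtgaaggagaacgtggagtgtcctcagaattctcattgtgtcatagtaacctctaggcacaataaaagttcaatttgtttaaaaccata
Elovl6 (chr3:129532136-129532385, + strand): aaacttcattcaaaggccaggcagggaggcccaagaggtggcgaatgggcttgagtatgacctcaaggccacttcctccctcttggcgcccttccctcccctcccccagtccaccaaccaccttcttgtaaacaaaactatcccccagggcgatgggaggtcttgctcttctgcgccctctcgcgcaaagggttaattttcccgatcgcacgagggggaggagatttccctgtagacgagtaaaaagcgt
Abca1 (chr4:53159896-53160145, - strand): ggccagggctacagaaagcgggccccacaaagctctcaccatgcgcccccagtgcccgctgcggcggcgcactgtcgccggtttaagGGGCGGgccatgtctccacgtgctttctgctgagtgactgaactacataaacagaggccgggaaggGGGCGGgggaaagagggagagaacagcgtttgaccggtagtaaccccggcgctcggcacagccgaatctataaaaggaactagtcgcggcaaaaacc
The Acsl1 promoters differ in base composition, with 48.4% G and C before the lead transcript and 72% before the other, which holds 4 GC boxes against 0. The Abca1 window holds 2 GC boxes, the Acsbg1 window 2 CCAAT boxes, and the Acsbg3, Lpcat2b and Elovl6 windows none of the marked letters.

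Over all members, 26 lead transcripts fell and 20 rose of the 95 that passed the filter on low counts. Over all listed genes, 39.8% of tested lead transcripts fell and 11.2% rose. The authors' deposited table lists 49 of the 96 members as lower and 47 as higher, where 63.6% of all listed genes are lower and 36.4% higher. No member's genotypes overlapped, with 49 genes lower and 47 higher in both cKO libraries, and the share of all listed genes whose genotypes do not overlap was likewise 63.6% lower and 36.4% higher. The members' median log2 fold change was -1.03, against -1.44 for all listed genes. All 95 tested lead transcripts had an unadjusted p under 0.05. Which members passed depended strongly on which library was left out, and the cause was not tested. The median log2 fold change of all tested transcripts moved by -0.0422 without WT 1 and by 0.0756 without WT 2. It moved by 0.0939 without cKO 1 and by -0.0667 without cKO 2, and 0 members turned sign in each of these fits. DESeq2 on all 4 libraries called 42 members lower and 34 higher.

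The balance of the directions depends on how the libraries are scaled. The table holds only called transcripts, and the cause of this dependence was not tested. Scaling by TMM, which takes the bulk of the listed transcripts as unchanged, moved the median of all tested transcripts by 1.52 on the log2 scale, RLE by 1.55, library totals by 0.526 and equal counts of the Sertoli markers by -1.33. Members that fell and rose then numbered 13 and 46 under TMM, 13 and 46 under RLE, 20 and 42 under library totals, and 49 and 3 under equal Sertoli counts. Of all calls, 78.1% were lower with the authors' size factors, 24% under TMM, 24.6% under RLE, 48.6% under library totals and 95.7% under equal Sertoli counts. Of the members that passed, Abhd4 and Acsl6 turned from lower to higher under TMM and RLE, and Acadm and Hadh from higher to lower under equal Sertoli counts. Of the 26 that fell, 13 no longer passed under either TMM or RLE, namely Abhd16b, Abhd4, Acot10, Acot9, Acsl5, Acsl6, Agpat3, Dgat2, Dgka, Gpat4, Pla2g4d, Plcb2 and Plcd4, and of the 20 that rose, 17 no longer passed under equal Sertoli counts, Abhd13, Abhd14a and Pld1 being the exceptions. Of the marker lists, 5 of the 8 spermatocyte markers turned sign under TMM and RLE, and 4 Sertoli, 2 spermatogonial and 1 Leydig marker under equal Sertoli counts, while no spermatid marker turned sign under these 4 scalings.

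**Figure D1:**
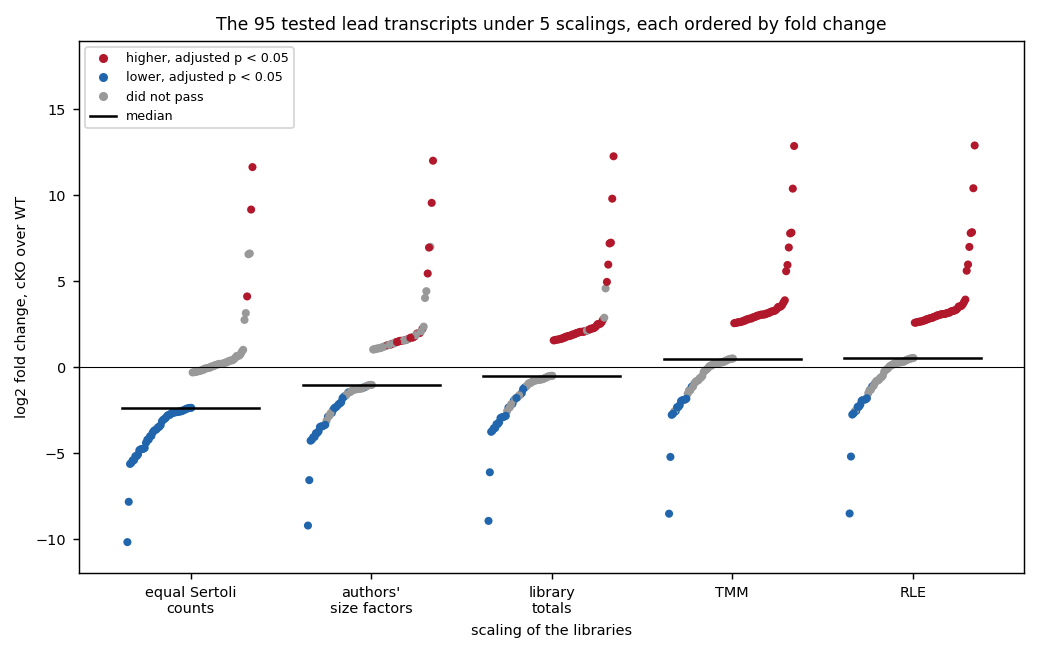
Log2 fold change (cKO over WT) of the 95 tested lead transcripts under 5 scalings of the libraries, each ordered from lowest to highest within its column, with the median as a bar. The cloud moves as a whole, so that the median is -2.37 under equal Sertoli counts, -1.03 with the authors' size factors, -0.50 under library totals, 0.50 under TMM and 0.53 under RLE.

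By role, the 10 acyl-CoA synthetases included 6 that fell and 3 that rose, and 3 of the 6 thioesterases, which undo that reaction, fell. All 9 elongases, desaturases and ceramide synthases were higher in both cKO libraries, as were 36.4% of all listed genes, and 7 rose. Of the enzymes that build glycerolipids, 5 of 11 acyltransferases fell and 1 rose, and 3 of 6 lipins and diacylglycerol kinases fell and 1 rose. Of the enzymes that break lipids down, 2 of 8 phospholipases A and patatin-like lipases fell and 1 rose, 3 of 6 phospholipases C and D fell and 2 rose, and 3 of 6 Abhd hydrolases fell and 2 rose. Of the 11 fatty acid binding proteins and ABCA transporters 0 fell and 1 rose, of the 11 tested genes of mitochondrial oxidation 0 fell and 2 rose, and of the 8 peroxisomal genes 1 fell and 0 rose. Over all listed genes, 39.8% of tested lead transcripts fell and 11.2% rose. Changes of sign under another scaling are given with each group.

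**Figure D2:**
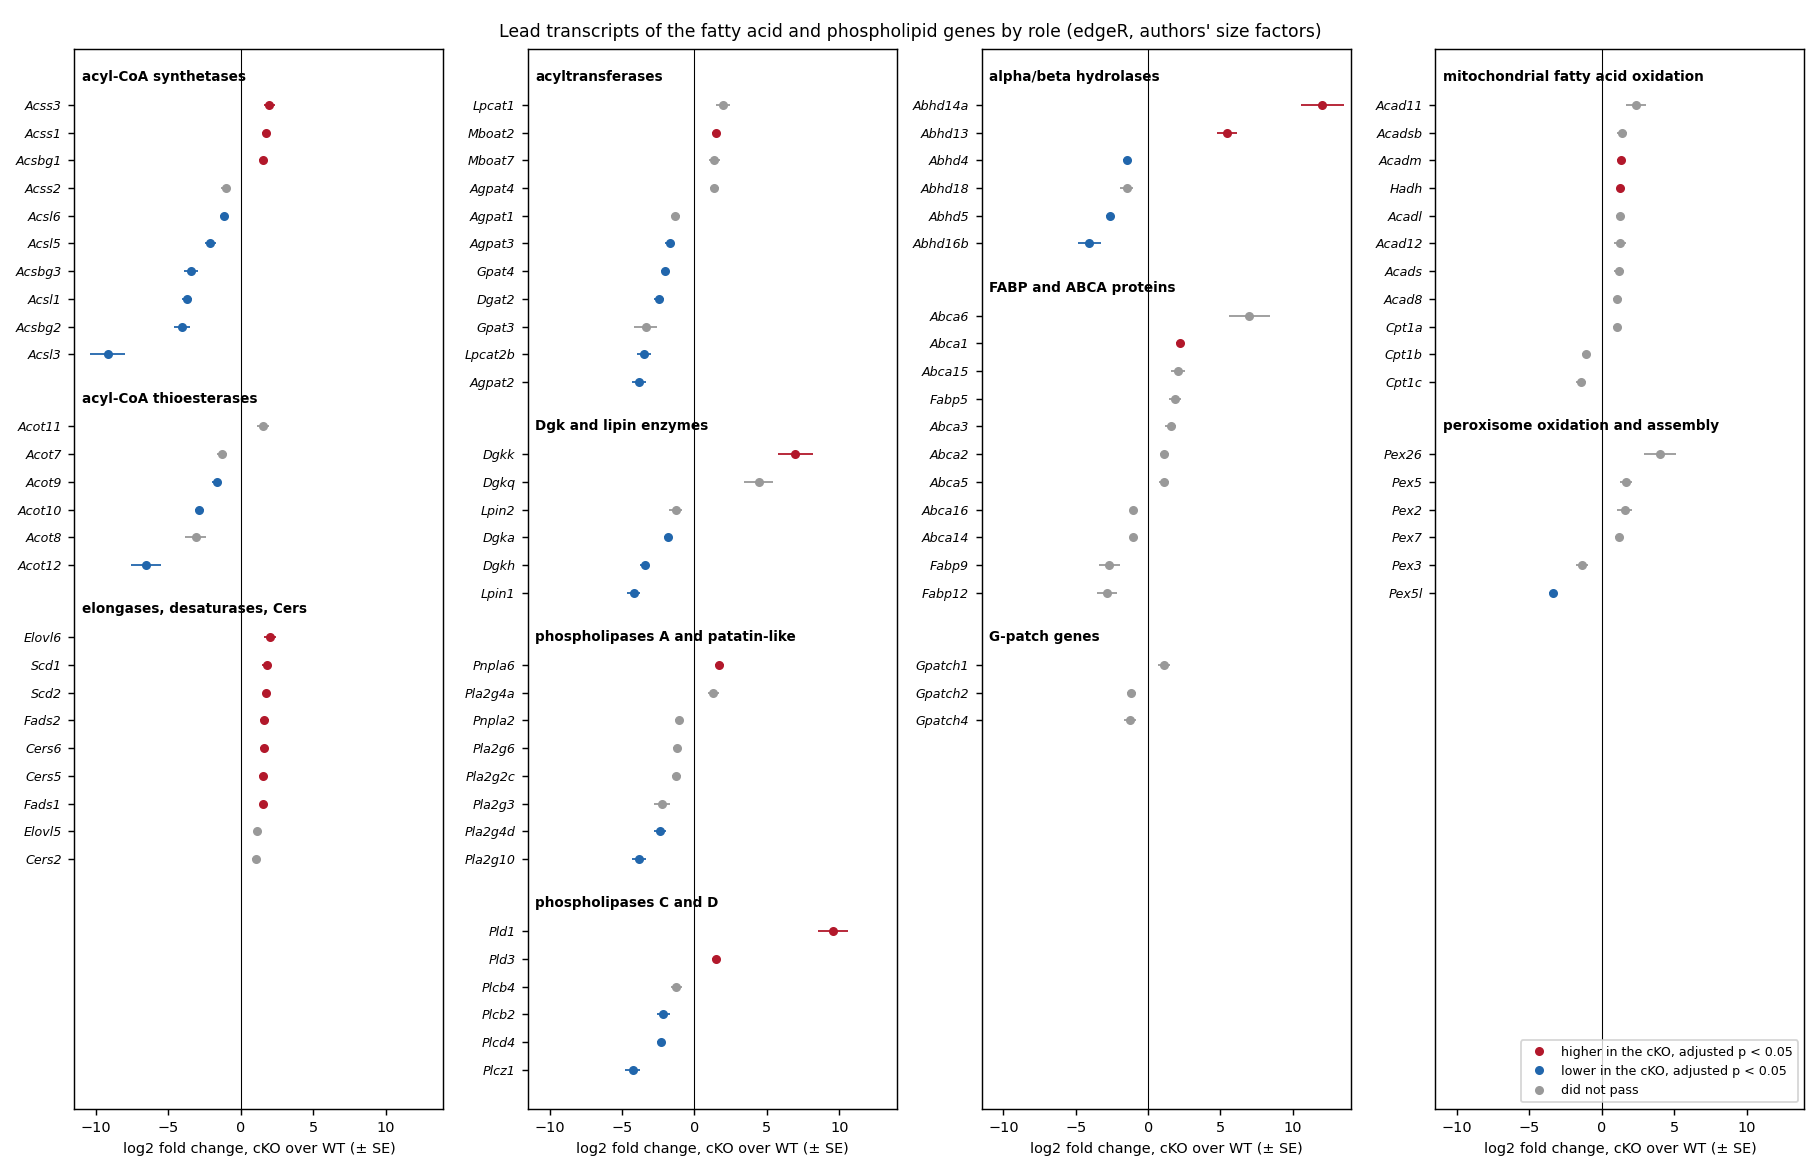
Log2 fold change of tested lead transcripts, cKO over WT, with its SE as a bar, grouped by role, in red where it rose, blue where it fell and grey where it did not pass. The elongases, desaturases and ceramide synthases lie between 1.04 and 1.99 on the right of 0 (Cers2 and Elovl5 turn sign under equal Sertoli counts), while the acyl-CoA synthetases run from -9.21 to 1.97.

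Acsl1, which activates long-chain fatty acids for triglyceride synthesis and oxidation, had normalized counts of 524 and 892 in the cKO against 8888 and 9830 in the WT. Both cKO libraries lay far below both WT libraries, and the log2 fold change was -3.72 ± 0.35 (adjusted p = 0.0154). The lead transcript spans chr8:46490966-46535581 (GRCm38, + strand) and starts at the first promoter shown. Acsbg2, a bubblegum-family synthetase known for its expression in testis, had 192 and 475 in the cKO against 4628 and 6576 in the WT, a log2 fold change of -4.07 ± 0.53 (adjusted p = 0.0196). Its neighbour Acsbg3, of the same family, had 185 and 386 in the cKO against 2450 and 3733 in the WT (log2 fold change -3.44 ± 0.46, adjusted p = 0.0212). The pair lies on chromosome 17, with Acsbg2 on the - strand and Acsbg3 on the + strand and 1029 bases between the genes, and both were higher in cKO 2 than in cKO 1. Acsl5 fell by 2.11 and Acsl6, which handles polyunsaturated fatty acids, by 1.17 on the log2 scale, and Acsl6 was at 0.36 under TMM and 0.39 under RLE. The lead Acsl3 transcript, a short one of 502 bases, had 0 reads in both cKO libraries against normalized counts of 100 and 42.2 in the WT. It was at least 59.1-fold lower when 3 counts over the group are taken as the floor. The other listed Acsl3 transcript, a retained intron, did not pass (-4.11 ± 1.19, adjusted p = 0.111).

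Acsbg1, the third bubblegum synthetase, rose. It had normalized counts of 7072 and 8838 in the cKO against 2445 and 3178 in the WT (log2 fold change 1.5 ± 0.26, adjusted p = 0.0327). At 176 and 211 FPKM it was the most abundant synthetase in the cKO, where Acsl1 was at 10.8 and 17.6 FPKM, while in the WT Acsl1 stood at 128 and 133 FPKM and Acsbg1 at 42.5 and 51.8. Acss1, the mitochondrial acetyl-CoA synthetase, had 864 and 913 normalized counts in the cKO against 227 and 310 in the WT (log2 fold change 1.72 ± 0.29), and Acss3 rose by 1.97 on the same scale, although 51.9% of the exonic bases of its transcript are shared with Ppfia2 on the other strand and the labels do not say whether the libraries kept strand. Acss2, the cytosolic acetyl-CoA synthetase, did not pass (log2 fold change -1.04 ± 0.31, adjusted p = 0.126, with its sign turned under TMM and RLE). Its listed transcript is annotated as a retained intron. Under equal Sertoli counts 7 synthetases fell and 0 rose, with Acsbg1 at 0.17.

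Acot7, an acyl-CoA hydrolase with a preference for long chains, was the most abundant thioesterase at 152 and 228 FPKM in the cKO and 267 and 369 FPKM in the WT, and it did not pass (log2 fold change -1.28 ± 0.33, adjusted p = 0.0815, and 0.24 under TMM). Acot10 had 61.4 and 57.6 normalized counts in the cKO against 439 and 436 in the WT (log2 fold change -2.88 ± 0.32, adjusted p = 0.0169). Acot9 had 162 and 225 in the cKO against 593 and 634 in the WT (log2 fold change -1.66 ± 0.31). Under TMM Acot10 was at -1.35 (adjusted p = 0.0901) and Acot9 at -0.14 (adjusted p = 1). Acot9 lies on the X chromosome and Acot10 is a single-exon gene on chromosome 15, and since 1488 bases of their transcripts are 97.11% identical, reads may be split between them and their separate values are uncertain. Acot12, whose listed transcript is annotated as a processed transcript and not as protein-coding, had 0 and 0.80 normalized counts in the cKO against 68.5 and 30.5 in the WT. Acot8, a peroxisomal thioesterase, and Acot11 did not pass, with log2 fold changes of -3.11 ± 0.72 and 1.54 ± 0.43.

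All 4 listed desaturases rose. Scd2, which puts the first double bond into saturated acyl chains, had 12418 and 11712 normalized counts in the cKO against 3481 and 3749 in the WT, with a log2 fold change of 1.74 ± 0.22 (adjusted p = 0.0193). Fads2 and Fads1, the front-end desaturases that make long polyunsaturated fatty acids, gave 6472 and 9677 for Fads2 in the cKO against 2436 and 2761 in the WT, and 2506 and 2557 for Fads1 in the cKO against 908 and 842 in the WT. Their log2 fold changes were 1.64 ± 0.29 (adjusted p = 0.0324) and 1.53 ± 0.23 (adjusted p = 0.0243), and in none of these genes did the genotypes overlap. Scd1 rose by 1.78 ± 0.29. Scd1 and Scd2 are neighbours on chromosome 19 with 87590 bases between them, Fads2 and Fads1 are neighbours there with 81141 bases between them, and 623 bases of Scd2 are 95.5% identical to an Scd1 transcript.

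Elovl5, which lengthens polyunsaturated chains, had 2611 and 2121 in the cKO against 1141 and 1027 in the WT and stood just outside the threshold (log2 fold change 1.13 ± 0.24, adjusted p = 0.0515). Elovl6, which lengthens saturated and monounsaturated chains, had 278 and 182 in the cKO against 47.7 and 67.9 in the WT (log2 fold change 1.99 ± 0.42, adjusted p = 0.0473). Its call rests on the lead transcript, since summing its listed transcripts gave 0.18 with an adjusted p of 1. Cers5 and Cers6, ceramide synthases that use palmitoyl-CoA, rose by 1.54 and 1.58, and Cers2, which uses very long chains, was at 1.04 ± 0.29 (adjusted p = 0.0971). The summed FPKM of all listed transcripts of the group was 527 and 572 in the cKO against 129 and 134 in the WT. All 9 passed as higher under TMM, RLE and library totals, whereas under equal Sertoli counts 0 passed, the median was 0.25 and the signs of Cers2 and Elovl5 turned. The median log2 fold change of the group was 1.58. Markers of several cell types moved with it, with medians of 1.47 for Sertoli, 1.56 for spermatogonial, 1.83 for Leydig and 1.86 for leukocyte markers, and their part in it was not tested.

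**Figure D3:**
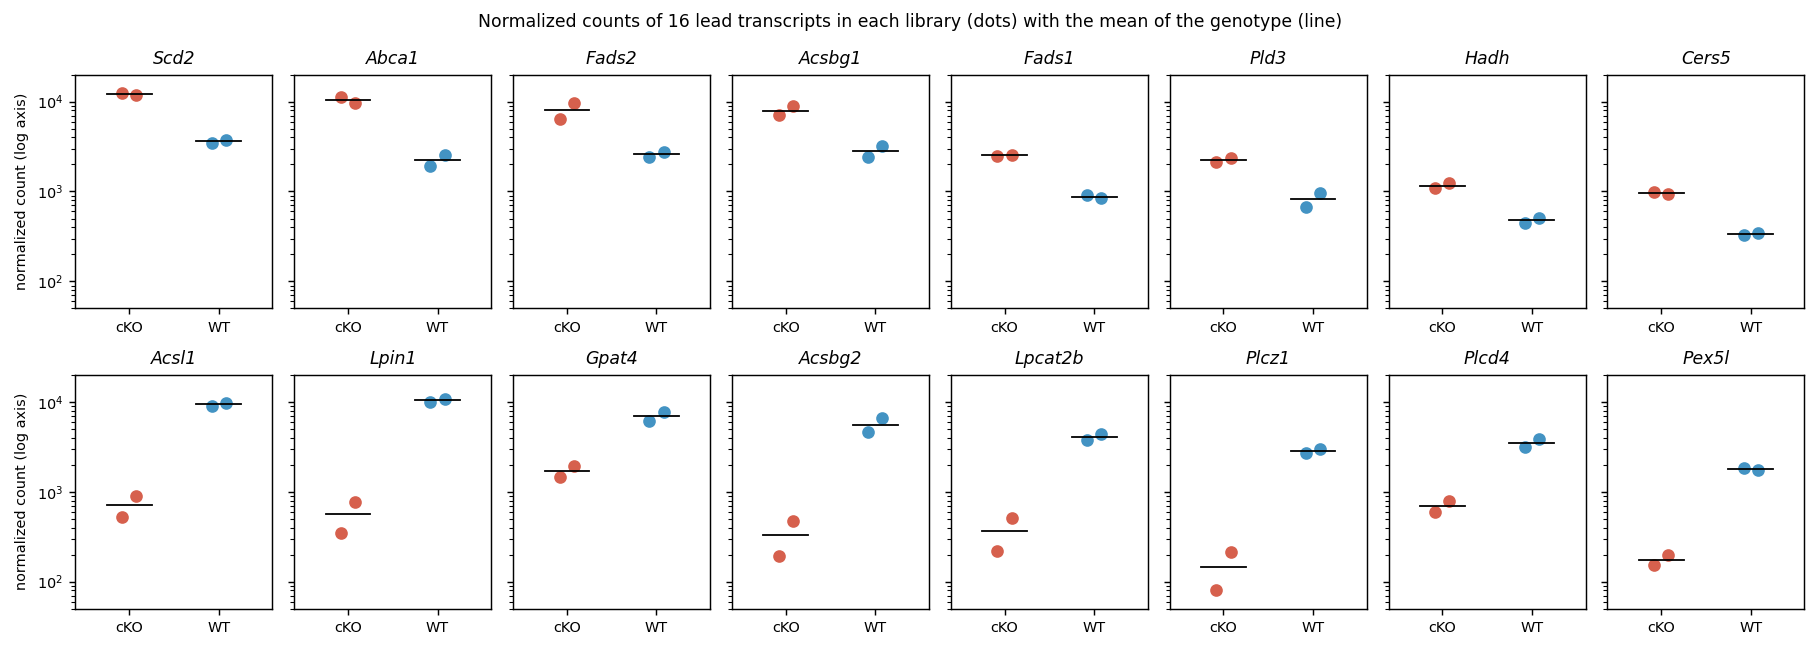
Normalized counts (log axis) of 16 lead transcripts in each library as dots, cKO on the left and WT on the right of every panel, with the mean of the genotype as a line. The upper row holds genes that rose, from Scd2 at 12418 and 11712 in the cKO to Cers5 at 991 and 946, and the lower row genes that fell, from Acsl1 at 524 and 892 in the cKO to Pex5l at 155 and 197, in all 8 of which cKO 2 lies above cKO 1.

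Among the acyltransferases, Gpat4, which adds the first acyl chain to glycerol phosphate, had 1455 and 1925 normalized counts in the cKO against 6207 and 7661 in the WT (log2 fold change -2.04 ± 0.27, adjusted p = 0.0207). Agpat2 and Agpat3, which add the second chain, fell by 3.83 and 1.72. The Agpat2 lead is annotated as a processed transcript and not as protein-coding, and its protein-coding transcript fell by 4.01 (adjusted p = 0.0280). Agpat3 had the highest level of the group at 72.2 and 95 FPKM in the cKO against 165 and 215 FPKM in the WT. Dgat2, which completes triglycerides, had 511 and 702 in the cKO against 2605 and 4120 in the WT (log2 fold change -2.47 ± 0.34, adjusted p = 0.0220). Lpcat2b, a lysophosphatidylcholine acyltransferase, had 218 and 514 in the cKO against 3794 and 4352 in the WT (log2 fold change -3.48 ± 0.47). Gpat3, the relative of Gpat4, was at -3.38 ± 0.77 and did not pass (adjusted p = 0.0573), although another of its transcripts fell, with 0 reads in both cKO libraries against 289 and 79.6 normalized counts in the WT. Mboat2, a membrane-bound acyltransferase of lysophospholipids, was the member of this group that rose, with 1059 and 910 in the cKO against 340 and 377 in the WT (log2 fold change 1.46 ± 0.26). Mboat7, Agpat4 and Lpcat1 were at 1.37, 1.37 and 1.99 and Agpat1, whose sign turned under TMM and RLE, at -1.32, and none of these passed. Under TMM and RLE 2 of this group fell and 4 rose, and Gpat4, Dgat2 and Agpat3 no longer passed, while under equal Sertoli counts 7 fell and 0 rose.

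Lpin1, a phosphatidate phosphatase that makes diacylglycerol for triglyceride and phospholipid synthesis, had the highest WT level of the lipins and diacylglycerol kinases. Its lead transcript had 351 and 774 normalized counts in the cKO against 9972 and 10811 in the WT, a log2 fold change of -4.21 ± 0.46 (adjusted p = 0.0166). In FPKM it stood at 8.05 and 17.1 in the cKO and at 160 and 163 in the WT. Dgkh and Dgka, kinases that turn diacylglycerol back into phosphatidate, fell by 3.44 and 1.80, with Dgka at 889 and 1188 in the cKO against 3295 and 3948 in the WT, and Dgka no longer passed under TMM, at -0.28, or RLE, at -0.25. Dgkk was detected at 17.8 and 12 normalized counts in the cKO with 0 reads in both WT libraries, at least 8.29-fold higher over a floor of 3 counts, and lost its call with DESeq2 (adjusted p = 0.114) and without the filter (adjusted p = 0.0599). Lpin2 (-1.30 ± 0.43, with its sign turned under TMM and RLE) and Dgkq (4.43 ± 1.00) did not pass, and the Dgkq transcript shares 41.2% of its exonic bases with Idua and Tmem175 on the other strand.

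Plcz1, the sperm phospholipase that starts calcium oscillations in the egg at fertilization, had 80.8 and 212 normalized counts in the cKO against 2677 and 2994 in the WT. Its log2 fold change was -4.27 ± 0.53 (adjusted p = 0.0189), and its other 2 listed transcripts fell by 3.96 and 3.18. Plcd4, needed for the acrosome reaction of mouse sperm, had 599 and 798 in the cKO against 3131 and 3842 in the WT (log2 fold change -2.32 ± 0.28, adjusted p = 0.0184), and it no longer passed under TMM, at -0.79, or RLE, at -0.77. Plcb2, a phospholipase C activated by G proteins, fell by 2.16, and the Plcb4 lead did not pass (-1.24 ± 0.41, with its sign turned under TMM and RLE). Another Plcb4 transcript rose (4.98 ± 1.00, adjusted p = 0.0435). Pld1, which splits phosphatidylcholine into phosphatidate and choline, had 107 and 74.4 in the cKO and 0 reads in both WT libraries, at least 50.7-fold higher over a floor of 3 counts. Pld3, a lysosomal nuclease despite its name, had 2152 and 2364 in the cKO against 676 and 958 in the WT (log2 fold change 1.47 ± 0.28).

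Of the phospholipases A, which free an acyl chain from phospholipids, Pla2g10, a secreted enzyme found in the sperm acrosome, had 22.6 and 44.8 normalized counts in the cKO against 424 and 543 in the WT (log2 fold change -3.84 ± 0.47, adjusted p = 0.0186). Pla2g4d fell by 2.37. The more abundant Pla2g6, Pnpla2 and Pla2g2c were lower in both cKO libraries without passing, at -1.22 ± 0.28, -1.06 ± 0.26 and -1.26 ± 0.29, and all 3 turned sign under TMM and RLE. The Pla2g3 lead, annotated as a target of nonsense-mediated decay, was at -2.27 ± 0.56 (adjusted p = 0.0711). Its protein-coding transcript, with a WT mean of 26.1 normalized counts, fell (-5.65 ± 1.11, adjusted p = 0.0411). Pla2g4a, the arachidonate-releasing enzyme, was at 1.31 ± 0.36 (adjusted p = 0.0992, with its sign turned under equal Sertoli counts). Pnpla6, a lysophospholipase, had 254 and 252 in the cKO against 75.8 and 78.5 in the WT (log2 fold change 1.71 ± 0.32, adjusted p = 0.0377), and its lead transcript is annotated as a retained intron.

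Abhd5, the co-activator of the triglyceride lipase encoded by Pnpla2, had 301 and 378 normalized counts in the cKO against 2238 and 2032 in the WT, and its log2 fold change was -2.65 ± 0.26 (adjusted p = 0.0155). All 3 of its listed transcripts fell, and the lead is annotated as a target of nonsense-mediated decay. Abhd4, which acts on N-acyl phospholipids, fell by 1.45 and was at 0.10 under TMM and 0.13 under RLE, and Abhd16b fell by 4.05. Abhd13 had 343 and 248 in the cKO against 11 and 2.34 in the WT (log2 fold change 5.45 ± 0.68). The lead transcript of Abhd14a had 776 and 222 in the cKO and 0 reads in both WT libraries, but another of its transcripts was listed in the opposite direction, and its summed transcripts gave a log2 fold change of 0.52 with an adjusted p of 1.

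Abca1, which loads cholesterol and phospholipid onto apolipoproteins and is known from Sertoli cells and macrophages, had 11160 and 9766 normalized counts in the cKO against 1907 and 2572 in the WT. Its log2 fold change of 2.22 ± 0.27 (adjusted p = 0.0183) no longer passed under equal Sertoli counts, at 0.90 (adjusted p = 0.0961). Abca2, Abca3, Abca5 and Abca15 were at 1.12, 1.55, 1.09 and 2.09, and Abca14 and Abca16 at -1.03 each, and none of them passed. The lead transcript of Abca15 is annotated as a retained intron, and its protein-coding transcript fell, with 0 reads in both cKO libraries against 86.8 and 97.2 normalized counts in the WT (adjusted p = 0.0184), while its summed transcripts gave a log2 fold change of 0.17 with an adjusted p of 1. Abca14 and Abca16 turned sign under TMM and RLE, and Abca2 and Abca5 under equal Sertoli counts. Abca14, Abca15 and Abca16 lie side by side on chromosome 7. Fabp9, a fatty acid binding protein of the sperm head, was the most abundant member in the WT at 1106 and 444 FPKM, against 268 and 84.6 FPKM in the cKO. The libraries of each genotype differed widely and it did not pass (log2 fold change -2.67 ± 0.71, adjusted p = 0.0864). Its chromosome 3 neighbour Fabp12, known for its expression in testis, was at -2.83 ± 0.69 (adjusted p = 0.0701). Another protein-coding Fabp12 transcript fell by 4.54 (adjusted p = 0.0212). Fabp5, carried by many somatic cells, was at 1.86 ± 0.41 (adjusted p = 0.0528). Fabp9 shares 52.1% of its exonic bases with Gm37389, and Fabp5 has processed pseudogenes, Gm6166 at 98.3% identity over 409 bases among them, so both values are uncertain.

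In mitochondrial oxidation, Hadh, a dehydrogenase of the oxidation cycle, had 1103 and 1229 normalized counts in the cKO against 443 and 511 in the WT (log2 fold change 1.29 ± 0.25, adjusted p = 0.0399). Acadm, which starts the cycle on medium chains, had 598 and 682 in the cKO against 258 and 256 in the WT (log2 fold change 1.31 ± 0.27, adjusted p = 0.0451). The other acyl-CoA dehydrogenases Acadl, Acads, Acadsb, Acad8, Acad11 and Acad12 were higher in both cKO libraries, at 1.07 to 2.36, without passing. The listed Acadsb transcript is annotated as a retained intron. The Acad12 value is uncertain, as 1614 bases of its transcript are 95.3% identical to Acad10. The carnitine palmitoyltransferases, which admit acyl chains into mitochondria, did not pass and had both signs. Cpt1a, the form of liver and most tissues, was at 1.03 ± 0.23 (adjusted p = 0.0546), Cpt1b, the muscle form, at -1.09 ± 0.25 (adjusted p = 0.0564), and Cpt1c, the brain form, at -1.43 ± 0.35 (adjusted p = 0.0721), with the signs of Cpt1b and Cpt1c turned under TMM and RLE and that of Cpt1a under equal Sertoli counts. The Cpt1b transcript shares 94.8% of its exonic bases with the read-through gene Gm44502. A short transcript of Hadha had 93.7 and 5.60 normalized counts in the cKO and 0 reads in both WT libraries and was below the filter. Under library totals 8 genes of this group rose and under TMM and RLE 9, while under equal Sertoli counts 2 fell, 0 rose and 7 changed sign.

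Of the peroxisomal genes, Pex5l, a relative of the import receptor Pex5 known from brain, had 155 and 197 normalized counts in the cKO against 1844 and 1750 in the WT (log2 fold change -3.35 ± 0.28, adjusted p = 0.0154), with 28.6% of the exonic bases of its transcript shared with an antisense gene. Pex5 itself, which brings matrix proteins into the peroxisome, was at 1.66 ± 0.40 (adjusted p = 0.0659). Pex3 was lower and Pex2, Pex7 and Pex26 were higher in both cKO libraries, and none of these lead transcripts passed. Another protein-coding Pex3 transcript fell by 3.45 (adjusted p = 0.0224). The Pex3 lead turned sign under TMM and RLE, and that of Pex7 under equal Sertoli counts. No Acox gene, the first enzymes of peroxisomal oxidation, has a listed transcript. The G-patch genes Gpatch1, Gpatch2 and Gpatch4 were at 1.09, -1.16 and -1.25, and 0 of the 3 lead transcripts passed. Their signs turned under TMM and RLE for Gpatch2 and Gpatch4 and under equal Sertoli counts for Gpatch1. Another Gpatch2 transcript fell by 3.41 (adjusted p = 0.0196). Another Gpatch4 transcript, with 0 reads in both WT libraries, rose (7.79 ± 1.24, adjusted p = 0.0360).

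Over the 154 tested transcripts of all members, 50 fell and 24 rose, where 41.4% of all listed transcripts fell and 10.4% rose. Of the 39 members with several listed transcripts, 23 had all of them lower, 9 all higher and 7 some of each, which is 7 of 39 against 17.7% of all listed genes with several transcripts. Acsl1 has listed transcripts from both of its promoters shown above. The lead transcript fell by 3.72. The transcript that begins at the GC-rich promoter, 19929 bases upstream, had 293 and 116 normalized counts in the cKO against 645 and 526 in the WT and did not pass (log2 fold change -1.52 ± 0.49, adjusted p = 0.156). Another 2 short transcripts, which begin 19789 bases upstream of the lead and so close to that start, fell by 4.16 and 4.33 on the log2 scale (adjusted p = 0.0179 and 0.0154). They share 26.3% and 82.9% of their exonic bases with Gm45244 on the other strand, so both values are uncertain. The second of them is annotated as a retained intron. A further retained intron transcript 19911 bases upstream was at -2.08 ± 0.53 (adjusted p = 0.0769). At Lpin1, the transcript that starts 6853 bases from the lead had 565 and 560 in the cKO against 1383 and 1690 in the WT, a log2 fold change of -1.45 ± 0.25 (adjusted p = 0.0307) beside -4.21 for the lead. The difference between transcripts of a gene was not tested.

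Agpat3, Plcb4, Elovl6, Abca15, Fabp9, Abhd14a and Gpatch4 had listed transcripts in both directions. In Elovl6, transcripts starting 19 bases apart, behind the single promoter shown, stood at 3.21 and 2.00 FPKM in the cKO against 0.38 and 0.51 in the WT for the lead, and at 0.07 and 0.77 FPKM in the cKO against 3.11 and 3.69 in the WT for the other. The share of the gene's listed FPKM in the transcript listed as higher was 97.9% and 72.2% in the cKO and 10.9% and 12.1% in the WT. In Fabp9, a transcript that starts at the same base as the lead, at 135 and 239 FPKM in the cKO against 9.72 and 14.9 FPKM in the WT, rose (log2 fold change 3.36 ± 0.43, adjusted p = 0.0193), while another, starting 61 bases away, fell by 2.26, and the summed transcripts fell by 1.99 (adjusted p = 0.0247). In Plcb4, transcripts starting 145837 bases apart held 66.1% and 42.9% of listed FPKM in the one listed as higher in the cKO and 0 and 2.61% in the WT. In Agpat3, with starts 2804 bases apart, the transcript listed as higher kept a small share, 6.21% and 5.03% in the cKO and 0.902% and 0.501% in the WT. Estimated counts divide reads among overlapping transcripts of a gene, and transcripts with no listing are not in these shares.

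**Figure D4:**
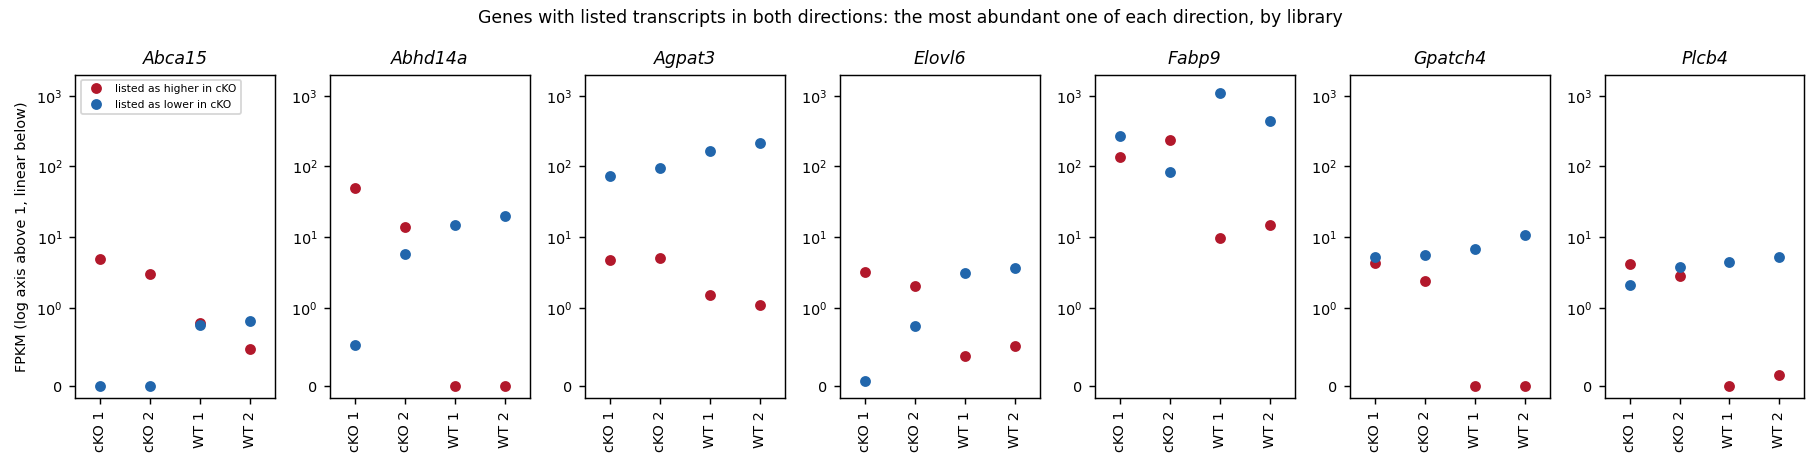
FPKM in each library (cKO 1, cKO 2, WT 1, WT 2; log axis above 1 and linear below) of the most abundant transcript listed as higher in the cKO (red) and the most abundant one listed as lower (blue), for the 7 genes listed in both directions. In Elovl6 the order turns between genotypes, with red at 3.21 and 2.00 and blue at 0.07 and 0.77 in the cKO, and red at 0.38 and 0.51 and blue at 3.11 and 3.69 in the WT, whereas the blue Agpat3 transcript is the higher in all 4 libraries.

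Of the members that fell, 21 of 26 were higher in cKO 2 than in cKO 1, and of those that rose, 8 of 20. The median log2 ratio of cKO 2 over cKO 1 was 0.46 over the 26 members that fell and -0.08 over the 20 that rose, against 0.28 and -0.03 for all listed genes that fell and rose. Over the spermatid lists it was 0.62 for round and 1.85 for elongating spermatids. The summed normalized counts of the members that fell were 8485 and 12063 in the cKO and 63887 and 76637 in the WT, and those of the members that rose were 50965 and 53218 in the cKO and 14309 and 16930 in the WT. The lead transcripts that fell had a median length of 2531 bases and those that rose 4764 bases, against 1791 and 3082.5 bases over all listed genes.

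Of the 96 members, 76 have a RefSeq promoter, and 51 of these start within 100 bases of the lead transcript. In the 250 bases before the start, CCAAT stood on either strand in 7 of 12 members that fell and 5 of 14 that rose, against 33.8% of all 32544 promoters. Of the members that did not pass, 13 of 25 held CCAAT. The GC box GGGCGG stood in 3 of 12 that fell, 7 of 14 that rose and 15 of 25 that did not pass, against 33%, and the TGACG core in 4 of 12, 2 of 14 and 4 of 25, against 17.8%. The full cAMP response element TGACGTCA, which contains that core, was in 0 of 12 and 0 of 14 (1.55% of all promoters). The sterol regulatory element core TCACNCCAC was in 1 of 12, the lead promoter of Acsl1, and 0 of 14, and in 1 of 25 that did not pass (1.04%), and the DR4 element of the liver X receptors was in 0 of 12 and 0 of 14 (0.0154%). These are matches of letters in a window and were not tested.

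Other genes of lipid metabolism were taken from 12 pathway lists. Beside their counts, 39.8% of tested lead transcripts of all listed genes fell and 11.2% rose. Of all listed genes, 63.6% were lower and 36.4% higher in both cKO libraries than in either WT library. Of the 18 fatty acid uptake and lipoprotein genes 8 were listed, all higher in both cKO libraries, and 6 rose, among them Apoe, Cd36 and Scarb1, with 477 and 561 normalized counts of the fatty acid translocase Cd36 in the cKO against 174 and 145 in the WT. The signs held under TMM, RLE and library totals, and under equal Sertoli counts Lrp8 turned and 0 passed. Of the 17 genes of fatty acid synthesis 8 were listed and 3 rose: Acly and the citrate carrier Slc25a1, which supply acetyl-CoA in the cytosol, and Acacb, an acetyl-CoA carboxylase. The Slc25a1 lead transcript had 54.1 and 91.2 in the cKO and 0 reads in both WT libraries. In this list 0 fell and 6 rose under TMM and RLE, and 1 fell and 1 rose under equal Sertoli counts. Fasn, the fatty acid synthase, had 4103 and 5347 in the cKO against 1963 and 2633 in the WT without passing (log2 fold change 1.04 ± 0.28, adjusted p = 0.0876), and its sign turned under equal Sertoli counts.

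Among 22 partners of mitochondrial oxidation, 12 were listed. Acaa2 and Echs1, enzymes of the oxidation cycle, were among those that rose. Oxct1, Oxct2a and Oxct2b, which use ketone bodies, fell. In the list 1 fell under TMM and 2 under RLE, and 9 rose under each, while under equal Sertoli counts 3 fell and 0 rose. The Oxct1 lead transcript had 0 reads in both cKO libraries against normalized counts of 45.3 and 23.4 in the WT. The testis forms Oxct2a and Oxct2b stood at 58.2 and 302 and at 41.2 and 215 in the cKO, against 2551 and 4104 and 2490 and 3443 in the WT. Of the peroxisomal partners 7 of 19 were listed, and Abcd3 rose and Eci2 fell, with the sign of Eci2 turned under TMM and RLE. In that list 0 fell and 5 rose under TMM and RLE, and 2 fell and 0 rose under equal Sertoli counts.

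In phospholipid head group synthesis 12 of 23 genes were listed, and Chpt1, Crls1 and Pgs1 fell, and Etnk2 rose. Scaling by TMM or RLE left 1 of the list lower and 3 higher, and equal Sertoli counts 9 lower and 0 higher. The Pgs1 lead transcript had 0 reads in both cKO libraries against normalized counts of 164 and 73.8 in the WT. Chpt1, which completes phosphatidylcholine, had 263 and 318 in the cKO against 1311 and 1199 in the WT. In ether lipid and seminolipid synthesis 5 of 8 were listed, with Arsa, Gnpat and Tmem189 lower and Ugt8a higher. Arsa and Gnpat turned sign under TMM and RLE, where 0 of the list fell and 2 rose, while under equal Sertoli counts 3 fell and 0 rose. The Ugt8a lead transcript had 42.8 and 16.8 in the cKO and 0 reads in both WT libraries. In sphingolipid metabolism 15 of 32 were listed, and the sphingomyelin synthases Sgms1 and Sgms2 and the sphingomyelinase Smpd3 fell and 0 rose. Sgms1 was at 139 and 173 in the cKO against 1828 and 1545 in the WT (log2 fold change -3.43 ± 0.29). Scaling by TMM or RLE left 1 of the list lower and 8 higher, and equal Sertoli counts 7 lower and 0 higher. Of the 29 lipid droplet genes 7 were listed, and the hormone-sensitive lipase Lipe fell, with 127 and 525 in the cKO against 4792 and 6128 in the WT, together with Plpp1 and Plpp6, while Plpp5 and the cholesterol-esterifying enzyme Soat1 rose. Of these, Plpp1 turned sign under TMM and RLE, where 0 of the list fell and 3 rose, while under equal Sertoli counts 4 fell and 0 rose. The Plpp5 lead transcript had 12.9 and 28.8 in the cKO and 0 reads in both WT libraries.

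Of the phospholipid flippases and scramblases 7 of 26 were listed, with Atp10a, Atp8a2 and Atp8b3 lower and Plscr3 higher. None of these 3 falls passed under TMM or RLE, where 0 of the list fell and 3 rose, with medians of -0.16 and -0.14. With equal Sertoli counts 4 fell and 1 rose. Atp8b3, a flippase of the sperm acrosome, had 11720 and 15628 in the cKO against 39659 and 48523 in the WT. The Plscr3 lead transcript had 80.0 and 121 in the cKO and 0 reads in both WT libraries. Of the lysophospholipid enzymes 5 of 21 were listed, and Gdpd1, Lypla1 and Pafah1b2 fell. These falls no longer passed under TMM or RLE, where 0 of the list fell and 1 rose, while under equal Sertoli counts 4 fell and 0 rose. Of the eicosanoid genes 5 of 24 were listed, with Ptges3 lower and Ptgr1 higher. In that list 0 fell and 4 rose under TMM and RLE, and 1 fell and 0 rose under equal Sertoli counts. Of the transcription factors of lipid metabolism 7 of 14 were listed, and Rxra, the partner of many lipid receptors, fell, with 38 and 25.6 in the cKO against 339 and 484 in the WT. The listed transcript of the liver X receptor gene Nr1h3 had 0 reads in both cKO libraries against 90.5 and 48.0 in the WT, and that of Nr1h2 had 177 and 101 in the cKO and 0 reads in both WT libraries. Srebf1 was at 1.10 ± 0.33 (adjusted p = 0.119), and its sign turned under equal Sertoli counts.

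Of 22 genes listed for known roles in germ cells or sperm, 8 (Pld6, Gpat2, Abhd2, Elovl2, Lpcat3, Cers3, Dgkz and Acox2) have no listed transcript and are not analysed here, and the other 14 are described above.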

How the data were processed

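Testis RNA of 4 samples was sequenced, and per the file headers the authors deposited expected counts and FPKM per Ensembl transcript and library in a table of called transcripts. The deposited mean normalized count, a signal, averages the 4 libraries. The log2 fold changes, test score and p-values in that table are the authors', with adjusted p up to 0.05 and log2 fold changes of 1 or more in either direction. The submitters' processing notes name mm9, but the gene coordinates equal those of GRCm38 for 98.5% of the listed transcripts whose gene is in GENCODE vM21 (98.7% of them) and for 95 of the 96 members, so coordinates are GRCm38. Neither aligner nor counter is given in the sources used here.

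Expected counts were rounded and tested with edgeR 4.0.16 (glmQLFit, glmQLFTest, genotype only) in R 4.3.3, with the authors' size factors, recovered from the mean normalized counts. After filterByExpr with a minimum count of 10, 10716 transcripts were tested. Benjamini-Hochberg adjustment ran over the 64840 transcripts the authors tested, unlisted ones at the largest p. The fit had 2 residual and 3.51 prior degrees of freedom and a common biological coefficient of variation of 32.5%. Total depth was 17612532 to 19835797 reads per library, and floors of 3 counts cover counting error only. Libraries of a genotype were not duplicates (chi-square per degree of freedom 29.8 in the cKO and 33.4 in the WT).

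Members and gene lists were chosen with earlier results of these data known. Named in each role group were the 3 most abundant genes by FPKM, the smallest p in each direction, genes at 0 in a genotype, genes listed in both directions and genes with known germ cell roles (others were picked with their values in view), and a few genes that are counted are not reported here by name. The fit was tested on simulated data. Alternatives were TMM, RLE, library total and equal Sertoli count scaling, DESeq2 1.42.0, no filter or 1 CPM in 2 libraries, summed transcripts, a replicate block and leaving out each library. Transcripts were compared with BLAST 2.17.0, and promoters are from RefSeq (GRCm38.p6).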

Additional observations from a re-analysis of the deposited data

How the results depend on the processing

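Members that fell and rose numbered 26 and 20 with the authors' size factors, 13 and 46 under TMM, 13 and 46 under RLE, 20 and 42 under library totals, 49 and 3 under equal Sertoli counts, and 42 and 34 with DESeq2. Over all listed genes the counts were 2835 and 796, against 808 and 2562, 838 and 2567, 1976 and 2088, 4540 and 202, and 3697 and 1519 in the same order. No filter gave 26 and 19 members, 1 CPM in 2 libraries 25 and 18, and summed transcripts 33 and 19. Leaving out each library gave 0 to 43 lower and 0 to 33 higher members, and 0 to 3876 lower and 0 to 1617 higher genes of all, with all 0 values when a WT library was left out. The cause of these shifts was not tested. The members' median log2 fold change of -1.03 was 0.499 under TMM and 0.526 under RLE, -0.50 under library totals, -2.37 under equal Sertoli counts, and -1 to -0.828 with a library left out.

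Under TMM and under RLE 19 members that were lower turned higher, and under equal Sertoli counts 14 that were higher turned lower. Of the genes taken by the naming rule, those that turned higher had log2 fold changes under TMM first and RLE second of Abca14 0.508 and 0.539, Abhd4 0.095 and 0.125, Acot7 0.244 and 0.264, Acsl6 0.363 and 0.391, Agpat1 0.204 and 0.226, Cpt1b 0.434 and 0.458, Gpatch2 0.39 and 0.421, Gpatch4 0.292 and 0.316, Pex3 0.175 and 0.197, Pla2g2c 0.264 and 0.287, Pla2g6 0.309 and 0.331, Plcb4 0.274 and 0.294, Pnpla2 0.463 and 0.487. Those that turned lower under equal Sertoli counts were Acadl at -0.0829, Elovl5 at -0.209, Gpatch1 at -0.254 and Hadh at -0.0436. No other alternative turned a member's sign. Without WT 1 and without WT 2, 33 named calls were lost each time.

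The replicate numbers were not shown to pair the samples, since the correlation of same-numbered deviations was 0.136 for both numbers and there are only 2 pairs. With the number as a replicate block, 35 members fell and 22 rose, and 2642 and 545 genes of all. Elovl6 (adjusted p = 0.078) and Dgkk (0.247) no longer passed. The calls of Acadm and Acss3 as higher and of Acot12 and Acsl5 as lower were lost as well.

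With 2 libraries a genotype, and a table that lists only called transcripts, a member that did not pass is not shown to be unchanged. Genes at 0 in a genotype and overlapping or near-identical genes are the least certain.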
